A study of Mus musculus with 2 samples.

Results

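The 7 genes described here, H2-Aa, H2-Ab1, H2-Eb1, H2-DMa, H2-DMb1, Cd74 and Ciita, serve the presentation of antigen on MHC class II molecules. They were taken by symbol from the gene list shared by both libraries, where each has 1 row among 31053 genes, and were measured in barcodes that held 1000 genes or more and no more than 10% mitochondrially encoded counts. The data are single-cell transcriptomes of mouse bone marrow progenitors, a sort of live CD45+ CD127+ cells negative for lineage markers (Lin-), with a stated purity above 90%. The KO library came from C57BL/6 animals with the element LCR1 deleted on both alleles (LCR1-/-), and the WT library from LCR1+/+ animals of the same strain. In either genotype males and females aged 8 to 12 weeks were pooled in the same number, and the labels do not say how many animals went in. The position of LCR1 and the cells in which it was deleted are not stated either, so no transcript checks the genotypes. The study asked what losing LCR1 does to group 2 innate lymphoid cells (ILC2) as they develop. With 1 library per genotype there is no test, no p-value is given and no difference between KO and WT has a replicate check.

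The KO library listed 8476 barcodes with 52137780 unique molecular identifiers (UMIs, counted molecules), and the WT library 20293 barcodes with 47883132 UMIs. The 2 limits kept 4343 KO cells with a median of 7261 UMIs and 3290 WT cells with a median of 5371.5 UMIs. Of these cells 11 in KO and 239 in WT had under 2000 UMIs. The libraries shared 75 barcode sequences, none of them among the kept cells. The sort's own markers had a UMI in most kept cells: Ptprc (CD45) in 90.7% of KO and 80.6% of WT cells, and Il7r (CD127) in 93.0% and 85.7%. A shallow group of cells stood apart in WT. When all cells were clustered, 5 KO and 620 WT cells fell into an unnamed cluster with a median of 2270 UMIs, led by mt-Nd6 and Ulk4.

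MHC class II molecules are pairs of an alpha and a beta chain that show peptides from endosomes to CD4 T cells. Cd74 encodes the invariant chain, which fills the groove until H2-DM, a pair made from H2-DMa and H2-DMb1 or H2-DMb2, exchanges its remnant for a peptide. Ciita is the coactivator that class II genes need. It does not bind DNA itself but is held at their promoters by the RFX complex, CREB1 and NF-Y, which occupy the X and Y boxes. Dendritic cells, macrophages and B cells are the classical class II-bearing cells, and lymphoid tissue inducer (LTi) cells and other group 3 innate lymphoid cells also carry it. C57BL/6 mice do not make the alpha chain that pairs with the product of H2-Eb1, so in this strain its transcript is not matched by a surface I-E molecule.

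Promoters are shown to describe matches to 2 short motifs of the X and Y boxes in the stretches listed for 4 members. H2-DMa and H2-DMb1 departed from the other members in the values below, and a link to these matches was not tested. The RefSeq table used (GRCm38.p6) holds 5 promoters of 4 members, each from 250 bases before to 50 after a gene start, and 4 of them are printed 5′ to 3′ along the gene's strand. Capitals mark matches on either strand to GATTGG, the core of the Y box, and ACNGATG, a core of the X box. The 2 motifs do not overlap in them.
H2-Eb1, chr17:34305617-34305916, plus strand: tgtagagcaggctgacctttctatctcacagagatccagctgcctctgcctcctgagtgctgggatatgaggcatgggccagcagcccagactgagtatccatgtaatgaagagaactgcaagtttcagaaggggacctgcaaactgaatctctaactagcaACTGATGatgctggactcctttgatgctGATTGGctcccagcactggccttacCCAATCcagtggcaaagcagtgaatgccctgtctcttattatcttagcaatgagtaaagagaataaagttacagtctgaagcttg
H2-DMb1, chr17:34152941-34153240, plus strand: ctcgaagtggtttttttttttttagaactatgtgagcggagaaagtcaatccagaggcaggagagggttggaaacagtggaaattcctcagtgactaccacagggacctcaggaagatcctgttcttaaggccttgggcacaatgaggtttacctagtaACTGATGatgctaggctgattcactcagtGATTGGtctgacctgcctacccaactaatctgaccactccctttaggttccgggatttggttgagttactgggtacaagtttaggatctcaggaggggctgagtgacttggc
H2-Aa, chr17:34287774-34288073, minus strand: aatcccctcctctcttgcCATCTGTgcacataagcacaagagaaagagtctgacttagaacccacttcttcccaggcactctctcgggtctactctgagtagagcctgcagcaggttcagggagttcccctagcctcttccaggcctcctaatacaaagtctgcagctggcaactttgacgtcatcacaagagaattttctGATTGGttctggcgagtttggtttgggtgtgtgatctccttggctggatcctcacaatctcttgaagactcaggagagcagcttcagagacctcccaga
H2-DMa, chr17:34122582-34122881, plus strand: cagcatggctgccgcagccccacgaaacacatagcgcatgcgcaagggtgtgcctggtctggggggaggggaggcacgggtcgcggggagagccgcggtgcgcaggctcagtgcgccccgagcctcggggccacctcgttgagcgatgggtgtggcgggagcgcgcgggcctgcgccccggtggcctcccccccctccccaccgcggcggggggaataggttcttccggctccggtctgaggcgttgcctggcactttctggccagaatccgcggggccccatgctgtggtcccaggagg
H2-Eb1 and H2-DMb1 share the arrangement: an X match that begins at -88 and -91 from the start, each followed by a plus-strand Y match at -60 and -62. H2-Eb1 has a further Y match on the minus strand at -35. H2-Aa has a Y match at -49, and its X match, on the minus strand at -232, lies far from it. Neither motif was found in the H2-DMa promoter shown, and its other start in the table used has a Y match at -199 alone. Both stretches lie inside the annotated span of H2-DMa, 34119541 to 34139101. The rest of the gene was not searched, so these stretches do not show whether H2-DMa lacks the boxes. Of 32851 promoters in the table, 16.1% held GATTGG, 9.85% ACNGATG and 1.52% both. A match is a description of letters and was not checked for binding.

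The H2 genes lie on chromosome 17 of GRCm38 (the assembly also called mm10) in the GENCODE M21 annotation, H2-DMa at 34119541 to 34139101, H2-DMb1 at 34153072 to 34160230, H2-Ab1 at 34257689 to 34269419 and H2-Eb1 at 34305867 to 34316674 on the plus strand, and H2-Aa at 34282744 to 34287823 on the minus strand. Cd74 lies on chromosome 18 at 60803848 to 60812652 and Ciita on chromosome 16 at 10480059 to 10528418, both on the plus strand. All 7 are protein-coding.

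Cells were gated by 14 lists of 6 marker genes, none of them a class II gene: a cell joined a gate with at least 2 markers detected and more of that list than of any other. A level is the share of a gate's UMIs that a gene holds, scaled as counts per 1000000 (CPM), with exact 95% Poisson intervals. UMIs count 3′ ends of molecules, so gene length does not enter, and all intervals cover counting error only. H2-DMb1 resembles H2-DMb2, and H2-Eb1 resembles H2-Eb2, so UMIs could have been lost or split between them in counting. Cells with at least 2 UMIs over H2-Aa, H2-Ab1, H2-Eb1 and Cd74, the 4 main genes, are called class II-positive.

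The class II genes were at their highest in LTi-like cells, which were gated on Il23r, Cxcr5, Ccr6 and others. In the 141 KO cells of this gate Cd74 stood at 6921.7 CPM (6751.0 to 7095.6), H2-Aa at 2990.5, H2-Eb1 at 2245.1 and H2-Ab1 at 2002.2 CPM. Cd74 ranked 7 among the 12629 genes with a UMI there, H2-Aa 46, H2-Eb1 70 and H2-Ab1 83. The peptide exchange genes were far lower, H2-DMa at 244.0 CPM (212.9 to 278.5) and H2-DMb1 at 85.4 CPM (67.4 to 106.8), and Ciita stood at 124.2 CPM (102.3 to 149.5). The WT gate held 5 cells, with 12471.8 CPM of Cd74, 4557.0 of H2-Aa, 3337.8 of H2-Eb1, 3957.4 of H2-Ab1 and 399.7 of Ciita. So few cells give no comparison between the genotypes.

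The gate missed many cells of this kind, which was seen by clustering both libraries together with all H2 genes, Cd74 and Ciita left out of the genes used. The cluster named LTi-like held 386 KO and 29 WT cells, with median depths of 5531.5 and 10636 UMIs. Of its KO cells 251 had a Ccr6 UMI, 172 a Cxcr5 UMI, 181 a Cd4 UMI and 384 an Il7r UMI, while 1 had a Cd3e UMI. Of its WT cells 20 had a UMI of Ccr6, 12 of Cxcr5, 7 of Cd4, 29 of Il7r and 2 of Cd3e. The summed 7 genes stood at 16396.9 CPM in KO (16231.2 to 16563.9) and at 17519.4 CPM in WT (17031.5 to 18017.8), a KO over WT ratio of 0.936 (0.908 to 0.964). H2-Aa had 3393.7 CPM in KO and 3404.2 in WT, H2-Eb1 2557.2 and 2561.2, H2-Ab1 2194.0 and 2428.5, and Cd74 7759.4 and 8705.9. The genotypes lay close together in the cells with the highest class II levels.

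**Figure D1:**
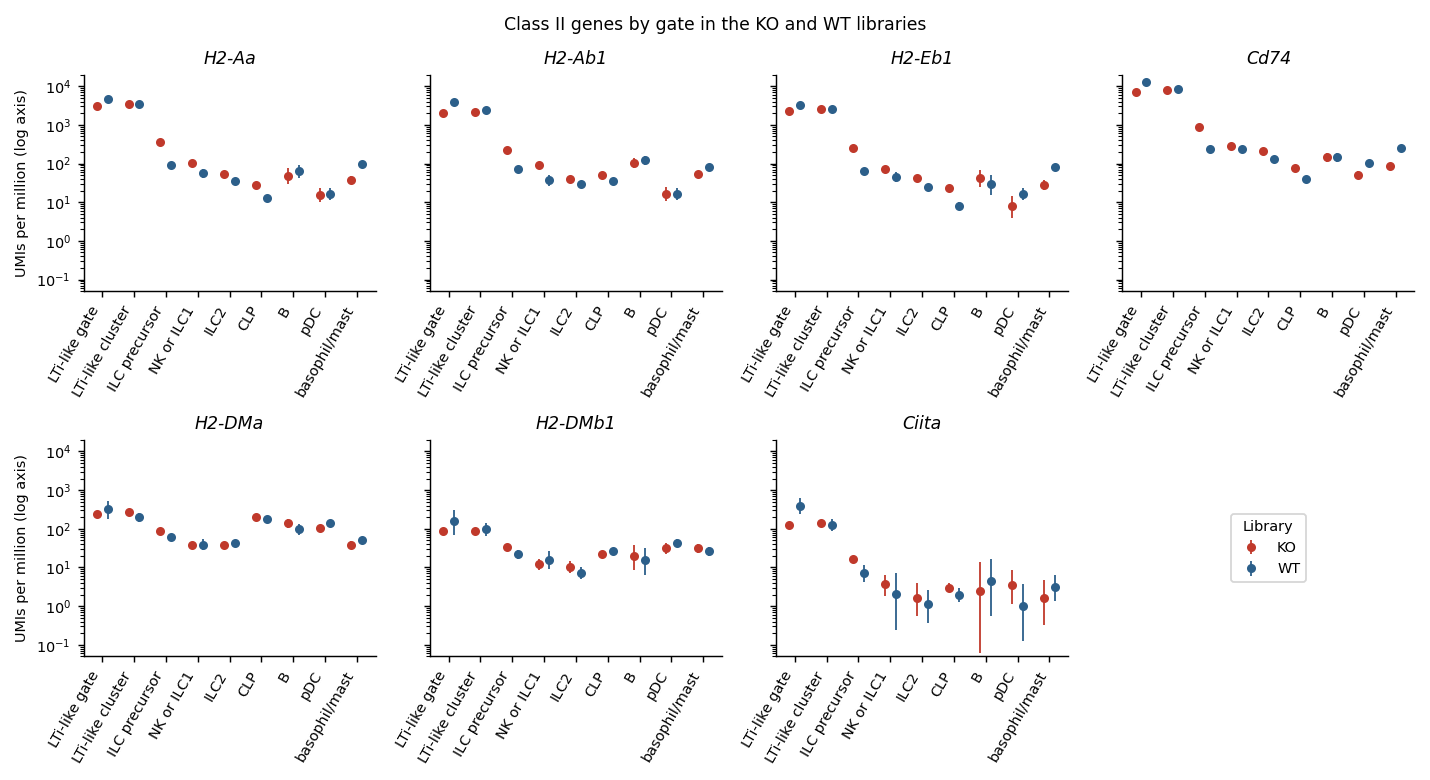
CPM (log axis) of each class II gene by gate and in the LTi-like cluster, in the KO library (left point of each pair) and the WT library (right point); bars are exact 95% Poisson intervals. The LTi-like gate and cluster lie above every other group for H2-Aa, H2-Ab1, H2-Eb1, Cd74 and Ciita, while H2-DMa in common lymphoid progenitor-like cells (CLP), at 199.7 CPM in KO and 179.2 in WT, comes near its LTi-like level.

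Detection within the LTi-like cluster was near complete. Class II-positive cells were 376 of 386 in KO (97.4%, Clopper-Pearson interval 95.3 to 98.8%) and 29 of 29 in WT (100%, 88.1 to 100%). All 4 main genes were detected together in 334 KO cells (86.5%) and 22 WT cells (75.9%), against 3.82% of the other KO cells and 2.42% of the other WT cells. The median cell had 147.0 UMIs of the 4 genes per 10000 UMIs in KO and 156.6 in WT. The cells still differed widely: the KO cells ran from 0 to 691.7 per 10000 and the WT cells from 2.01 to 466.1. H2-DMa was detected in 67.4% of the KO and 62.1% of the WT cells of the cluster, and H2-DMb1 in 33.7% and 51.7%. H2-DMa separated the cluster from other cells far less than the 4 genes did, since 44.6% of the other KO and 38.1% of the other WT cells had a UMI of it.

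Within the KO library the LTi-like gate was set against the ILC precursor-like, NK or ILC1-like and ILC2-like gates pooled. The summed 7 genes were 11.9-fold higher (11.7 to 12.2), at 14613.3 against 1223.6 CPM. All 7 genes passed a rule of size, which asks for at least 50 UMIs over both groups, 50 CPM in the higher one and a difference of 2-fold or more whose interval leaves out 1. The background was 7.1% of 3550 genes measured that passed in that direction. H2-Eb1 was 13.6-fold higher, H2-Ab1 13.3-fold, H2-Aa 12.8-fold, Ciita 12.2-fold and Cd74 12.0-fold, but H2-DMa 3.798-fold and H2-DMb1 3.69-fold. The ILC precursor-like gate itself holds cells of the LTi-like cluster, as given below, and with named clusters in place of gates the summed fold was 26.7 (26.0 to 27.5).

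Other genes of the pathway, from a list of 19 of which 18 have a row in the files, followed in part. Of 7 that reached the minimum level, 5 passed the rule as higher in the LTi-like gate, with a median log2 ratio over the 7 of 1.15 against 0.10 over all genes measured. H2-DMb2, the other DM beta chain, stood at 170.8 against 13.5 CPM (12.6-fold, 10.1 to 15.8). Ctss, the cathepsin that trims the invariant chain, stood at 300.6 against 53.7 CPM (5.60-fold), and Ctsl, a related protease, at 67.7 against 28.9 CPM (2.34-fold). H2-Oa and H2-Ob encode H2-O, which restrains H2-DM. H2-Oa had 190.8 against 58.0 CPM (3.29-fold) and H2-Ob 62.1 against 25.2 CPM (2.46-fold). The factors that hold Ciita at the promoters did not pass: Creb1 stood at 128.7 against 102.9 CPM and Nfyb at 44.4 against 57.7 CPM. Rfx5 had 7 UMIs in the LTi-like gate, at 7.77 against 13.1 CPM, under the minimum level. The costimulatory Cd80 and Cd86 had 1 and 2 UMIs there and Cd40 had 13, also under the minimum.

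Of a list of 9 class I presentation genes 8 were measured and none passed the same rule, beside 7.1% of 3550 genes. At that background a count over so few genes cannot tell them from other genes. Their median log2 ratio was 0.42, against 0.10 over all genes measured. H2-K1, a class I heavy chain, stood at 2631.1 against 1503.4 CPM (1.75-fold) and B2m, the light chain, at 2563.5 against 1805.4 CPM (1.42-fold). Of a list of interferon gamma response genes 2 of 5 measured passed, Cxcl10 at 329.4 against 69.3 CPM (4.75-fold) and Icam1 at 146.4 against 56.8 CPM (2.58-fold). Irf1 (97.6 against 108.6 CPM) did not pass. Of 6 B cell genes outside the gates none was measured. In the LTi-like gate Vpreb3, Ms4a1, Cd22 and Igll1 had 0 UMIs, Spib 1 and Blnk 7 (7.77 against 4.23 CPM). Of 6 pDC genes outside the gates 3 of 4 measured passed: Irf8 (181.9 against 56.0 CPM), Bst2 (284.0 against 96.4) and Runx2 (79.9 against 37.6).

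The genes whose level ran most like that of the summed members were found over 17 points, each a gate in 1 library with at least 30 cells, among 5142 genes. The 10 with the highest Pearson correlation on log2(CPM + 5) were Adm, Snx1, Dll1, Cd4, Prr29, Rasl11a, Ncoa7, H2-DMb2, Foxs1 and Lingo4, from 0.96 for Adm to 0.89 for Lingo4. The points share 2 libraries and their depth, and the KO LTi-like gate is the farthest of them. Without it the correlations were 0.86 for Adm, 0.60 for Cd4 and 0.47 for Foxs1. Other points still held cells of the LTi-like cluster, such as 97 in the KO ILC precursor-like gate. Adm, which encodes the peptide adrenomedullin, had 65.5 CPM in the KO LTi-like gate and a median of 0 elsewhere, and Ncoa7 had 836.4 CPM with a median of 33.2. Among the members, Cd74 (0.96), H2-Eb1 (0.95), H2-Aa (0.95), H2-Ab1 (0.95) and Ciita (0.93) ran with the sum, but H2-DMb1 (0.56) and H2-DMa (0.39) less so. Without the LTi-like gate the value of H2-DMa was 0.06.

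The other innate lymphoid gates, with their cells of the LTi-like cluster included, carried class II UMIs at far lower levels. The summed 7 genes stood at 1853.5 CPM in 734 KO and 555.6 CPM in 194 WT cells of the ILC precursor-like gate. The NK or ILC1-like gate had 601.9 CPM in 490 KO and 433.4 CPM in 139 WT cells, and the ILC2-like gate 390.5 CPM in 614 KO and 270.3 CPM in 738 WT cells. Cd74 led in each, at 864.9 and 243.3 CPM in ILC precursor-like, 284.6 and 237.2 CPM in NK or ILC1-like and 205.4 and 129.9 CPM in ILC2-like cells of KO and WT. In KO the order from ILC precursor-like over NK or ILC1-like to ILC2-like was wider than the counting intervals, as it was in WT. Without the LTi-like cluster the first 2 of these gates no longer held that order, at 472.2 and 475.1 CPM in KO and 336.7 and 433.4 CPM in WT.

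These levels rested on few cells. The median cell of all 3 gates in both libraries had 0 UMIs of the 4 main genes. In the ILC precursor-like gate 94 of 734 KO cells (12.8%) had 50 or more per 10000 UMIs and carried 88.1% of the gate's UMIs of these genes, against 7 of 194 WT cells (3.61%) with 63.2%. In the ILC2-like gate 9 of 614 KO cells carried 41.1%, and 3 of 738 WT cells 22.5%. In the NK or ILC1-like gate 9 of 490 KO cells carried 54.8% and 4 of 139 WT cells 50.5%. In no gate but the LTi-like one were most cells high.

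**Figure D2:**
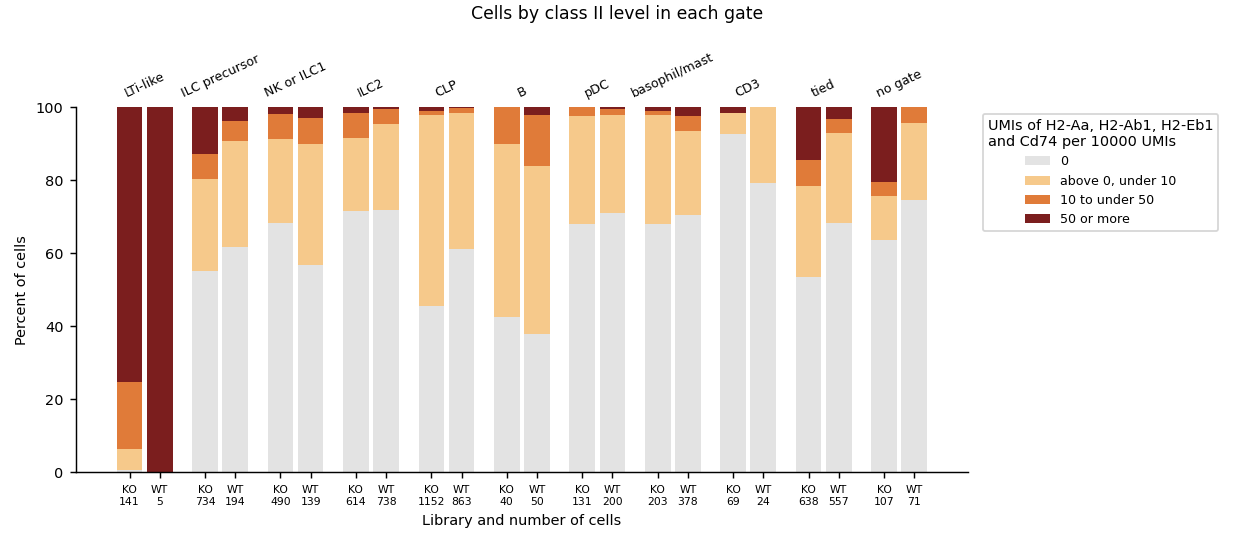
Percent of the cells of each gate (y axis) by UMIs of H2-Aa, H2-Ab1, H2-Eb1 and Cd74 per 10000 UMIs, for the KO (left bar) and WT library (right bar), with the number of cells under each bar. Cells with 50 or more make up 75.2% of the KO LTi-like gate and all 5 WT cells, and elsewhere they are few, at 12.8% of KO against 3.61% of WT ILC precursor-like cells.

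In KO class II-positive cells were more frequent in all 3 gates than in CD3-expressing cells, which should lack these genes, and WT held too few CD3-expressing cells for that comparison. After thinning each cell to 2000 UMIs, 20.9% of KO and 10.4% of WT ILC precursor-like cells were class II-positive, 11.9% and 14.1% of NK or ILC1-like cells and 9.94% and 7.41% of ILC2-like cells. Without thinning the values were 30.5% and 20.1%, 20.2% and 27.3%, and 16.3% and 15.2%. Of CD3-expressing cells 1 of 69 was positive in KO (1.45%, 0.0367 to 7.81%), and 0 of 24 in WT, which allows up to 12.5%. The KO interval of ILC2-like cells, 7.69 to 12.6%, just meets that of the CD3-expressing cells. Their median depths were 5059 UMIs in KO and 6407.5 in WT, close to the 4508.5 and 5400 UMIs of ILC2-like cells. Thinning left out 3 KO and 4 WT NK or ILC1-like cells, 9 WT ILC2-like, 1 KO and 2 WT ILC precursor-like cells.

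A larger group with little class II was the unnamed cluster led by Klra7, Ccl5, Ly6c2, Klre1 and Cd3d, picked for this purpose after its values were seen, which also held 63 of the 69 KO CD3-expressing cells. Its 289 KO and 95 WT cells had 17.9 CPM (12.3 to 25.1) and 15.1 CPM (7.54 to 27.0) of the 4 main genes, at median depths of 5659 and 7572 UMIs. At 2000 UMIs 0 of 289 KO cells were positive, which allows up to 1.04%, and 0 of 95 WT cells, which allows up to 3.16%. The ILC2-like gate had 340.9 CPM of the 4 genes in KO and 218.9 CPM in WT. A smaller CD3-expressing cluster led by Actn2, S100a6 and Cd3g did not share that low level, at 1506.6 CPM in 44 KO and 1066.3 CPM in 34 WT cells. There 2 KO cells carried 65.5% and 1 WT cell 62.8% of the UMIs. Barcodes under 500 genes, a gauge of free RNA mixed with damaged cells, had 142.1 CPM of the 7 genes in KO and 418.9 CPM in WT, which in WT is more than the 270.3 CPM of the ILC2-like, 304.5 of the common lymphoid progenitor-like and 334.4 of the pDC-like gate and near the 433.4 CPM of the NK or ILC1-like gate. H2-DMa over H2-Aa was 0.826 in these barcodes in KO and 1.79 in WT.

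Whether class II UMIs in other gates came with those of LTi-like cells was measured in 3 ways. The first was membership of the LTi-like cluster. In KO 97 of 734 ILC precursor-like cells belonged to it and carried 76.6% of the gate's UMIs of the 7 genes, and in WT 7 of 194 cells carried 41.8%. In the ILC2-like gate 2 KO cells carried 17.9% and no WT cell belonged to it. In the NK or ILC1-like gate 2 KO cells carried 21.7%, and again none in WT. Over all kept cells the cluster held 70.8% of the class II UMIs of KO and 34.5% of those of WT. Without its cells the ILC precursor-like gate stood at 472.2 CPM in KO and 336.7 in WT, the NK or ILC1-like gate at 475.1 and 433.4, and the ILC2-like gate at 323.2 and 270.3 CPM.

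The second was the LTi-like markers of the cells themselves. Among KO ILC precursor-like cells with 0 such markers 12 of 353 (3.40%) had 50 or more class II UMIs per 10000, with 1 marker 34 of 273 (12.5%) and with 2 or more 48 of 108 (44.4%), at median depths of 8011, 8859 and 7386.5 UMIs. In WT the shares were 3 of 104 (2.88%), 2 of 63 (3.17%) and 2 of 27 (7.41%). Of all 348 such KO cells 311 had an LTi-like marker and 308 lay in the LTi-like cluster, and of 49 such WT cells 23 had a marker and 23 lay in the cluster. These counts include 106 KO and 5 WT cells of the LTi-like gate, which carry at least 2 such markers by definition. In the KO ILC precursor-like gate 82 of 94 such cells had a marker, in the ILC2-like gate 2 of 9 and in the NK or ILC1-like gate 4 of 9. In WT these were 4 of 7, 1 of 3 and 0 of 4.

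The third was the ratio of genes, since UMIs from 1 source keep their genes in 1 proportion within a library. H2-Ab1 over H2-Aa was 0.647 in the KO LTi-like cluster (0.624 to 0.670) and 0.713 in the WT one (0.645 to 0.788). It was close to that in the ILC2-like gate, 0.777 in KO (0.608 to 0.991) and 0.818 in WT (0.643 to 1.04). H2-DMa over H2-Aa, however, was 0.0780 in the KO cluster and 0.0580 in the WT one, but 0.720 and 1.21 in ILC2-like, 0.368 and 0.696 in NK or ILC1-like and 0.238 and 0.675 in ILC precursor-like cells. Cd4, at 254.0 CPM in the KO LTi-like gate against 10.0 CPM in the other innate gates pooled, gave 1.41 UMIs per 100 of the 4 main genes in the KO cluster (1.29 to 1.54) and 0.357 in the WT one (0.208 to 0.572). The ILC2-like gate had 0.586 in KO (0.215 to 1.28), below the KO cluster, and 0 of 984 in WT, where up to 0.376 is allowed. The NK or ILC1-like gate had 0.421 in KO (0.169 to 0.870) and 0 of 376 in WT, and the KO ILC precursor-like gate had 0.979 (0.809 to 1.18). These Cd4 values also count the gates' cells of the LTi-like cluster, which carried 76.6% of the KO ILC precursor-like UMIs of the 7 genes. Without cells that carried an LTi, B, pDC, dendritic cell or macrophage marker, the ILC2-like gate stood at 383.0 CPM of the 7 genes in KO and 327.6 CPM in WT, and in KO it had no Cd4 UMI, which allows up to 1.03 per 100.

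The NK or ILC1-like gate drew mainly on 2 clusters that differed in class II level. The levels below are of whole clusters, which also hold cells outside the gate, so a division within the gate was not measured. Of the gate's cells 322 of 490 in KO (65.7%) and 84 of 139 in WT (60.4%) lay in a cluster led by Ncr1 and Klrb1a. That whole cluster had 1024.3 CPM of the 7 genes in 470 KO and 1275.1 CPM in 122 WT cells. A further 27.8% and 30.2% lay in the Klra7 and Cd3d cluster described above, at 42.8 and 39.8 CPM. In the first cluster 18 KO cells carried 49.1% and 9 WT cells 64.0% of the UMIs of the 4 genes, and 4 and 2 of these high cells had an LTi-like marker. The gate held 9 KO and 4 WT high cells.

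Progenitors and precursors outside the innate gates had class II UMIs of another makeup. In common lymphoid progenitor-like cells, gated on Flt3, Dntt, Rag1 and others, the 7 genes summed to 404.1 CPM in 1152 KO and 304.5 CPM in 863 WT cells, and H2-DMa made up 49.4% of them in KO (48.3 to 50.6%) and 58.9% in WT. H2-DMa stood at 199.7 CPM in KO (193.2 to 206.4) and 179.2 CPM in WT (171.4 to 187.3), against 28.6 and 12.8 CPM for H2-Aa, 49.0 and 35.3 for H2-Ab1 and 23.8 and 7.99 for H2-Eb1. In the KO LTi-like gate H2-DMa made up 1.67% of the UMIs. H2-Ob, an inhibitor's chain, was also high in these progenitors, at 131.6 CPM in KO and 108.6 CPM in WT, above its 62.1 CPM in the KO LTi-like gate. After thinning 4.08% of KO and 3.04% of WT cells were class II-positive, against 346 of 1152 and 160 of 863 without, and 74 WT cells were left out. The thinned shares are near that of KO CD3-expressing cells. The gate's cells fell into clusters in different shares: 46.8% of the KO and 26.9% of the WT cells lay in the cluster named for these progenitors, and 28.6% of the WT cells in the shallow unnamed one.

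B-like cells, gated on Cd79a, Cd79b, Ebf1 and others, had 502.0 CPM in 40 KO (436.0 to 575.3) and 476.4 CPM in 50 WT cells (414.2 to 545.4), which overlap. Cd74 stood at 145.5 and 145.2 CPM, H2-DMa at 140.7 and 97.6, H2-Ab1 at 104.3 and 120.2 and H2-Aa at 48.5 and 63.5 CPM in KO and WT. H2-Ab1 thus exceeded H2-Aa 2.15-fold in KO (1.24 to 3.86) and 1.89-fold in WT (1.18 to 3.11), where the LTi-like cluster showed less H2-Ab1 than H2-Aa. This was not particular to B-like cells. Common lymphoid progenitor-like cells also had more H2-Ab1 than H2-Aa, at 49.0 against 28.6 CPM in KO and 35.3 against 12.8 in WT. The class II UMIs were spread over cells more evenly than in the ILC precursor-like, NK or ILC1-like and ILC2-like gates: the median cell had 0.962 per 10000 in KO and 1.56 in WT. Of the thinned cells 15.0% in KO and 18.6% in WT were positive, with 7 WT cells left out, and 50.0% and 42.0% without thinning.
A small B-like cluster led by Vpreb3, Fcrla and Cd79a had 942.8 CPM in 6 KO and 2119.9 CPM in 7 WT cells, above the 395.1 and 341.9 CPM of 187 KO and 116 WT cells led by Igll1 and Vpreb1, genes of the surrogate light chain of precursor B cells.

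Plasmacytoid dendritic cell-like (pDC-like) cells, gated on Siglech, Ccr9, Cox6a2 and others, were the lowest of the gates compared in KO. The 7 genes summed to 231.1 CPM in 131 KO cells (206.5 to 257.7) and 334.4 CPM in 200 WT cells (309.3 to 361.1). H2-DMa was the leading gene, at 105.5 CPM in KO and 138.3 in WT, followed by Cd74 at 50.2 and 102.4 and H2-DMb1 at 31.6 and 43.5 CPM. The classical chains were low, H2-Aa at 15.8 and 16.4, H2-Ab1 at 16.5 and 16.4 and H2-Eb1 at 7.89 and 16.4 CPM. The proteases of the pathway were higher than in most gates, Ctss at 149.3 and 161.8 CPM and Ctsl at 100.5 and 156.2 CPM. After thinning 3.05% of KO and 3.19% of WT cells were class II-positive, near the CD3-expressing cells, against 10.7% and 13.0% without, at median depths of 9888 and 9691.5 UMIs, with 12 WT cells left out. The interval of the KO share runs from 0.838 to 7.63%.

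**Figure D3:**
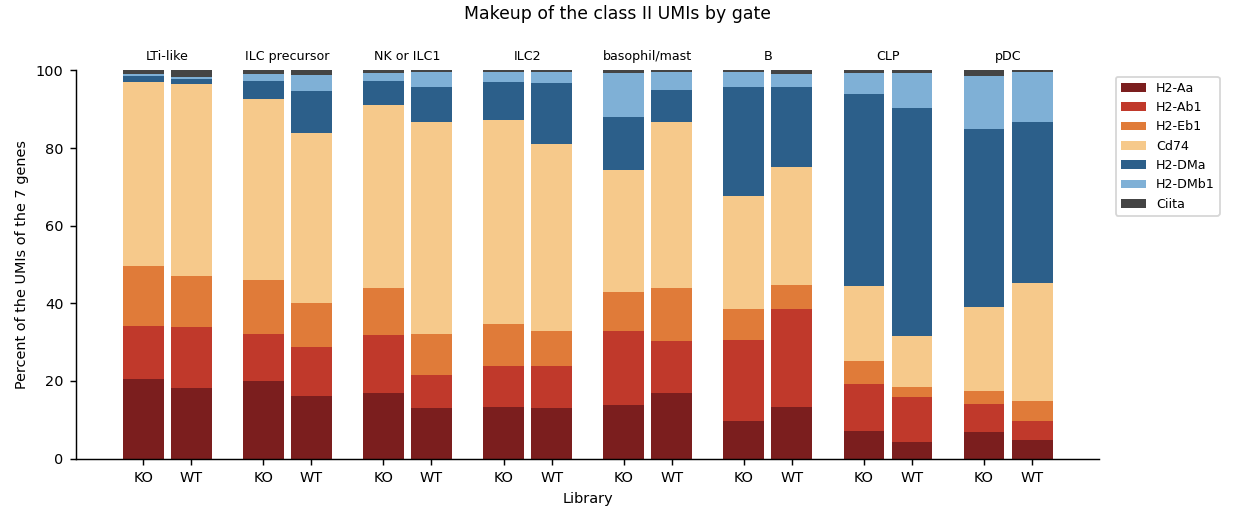
Percent of the UMIs of the 7 genes that each gene contributes (y axis), by gate, for the KO (left bar) and WT library (right bar). Cd74 and the H2-Aa, H2-Ab1 and H2-Eb1 chains fill nearly all of the LTi-like bars, while H2-DMa makes up 49.4% of KO and 58.9% of WT UMIs in common lymphoid progenitor-like cells (CLP) and 45.7% of KO UMIs in pDC-like cells.

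Basophil or mast cell-like cells, gated on Prss34, Mcpt8, Cpa3 and others, had 274.5 CPM in 203 KO and 592.7 CPM in 378 WT cells. Here 2 KO cells and 9 WT cells with 50 or more UMIs per 10000 carried 60.9% and 73.4% of the UMIs of the 4 main genes. Cells of the LTi-like cluster, 3 in KO and 4 in WT, carried 49.1% and 56.7% of the UMIs of the 7. Of the thinned cells 4.52% in KO and 8.23% in WT were positive, with 4 and 50 cells left out. Plasma cell-like cells were 5 in each library and had Cd74 with little else, at 3186.1 CPM of Cd74 and 8.78 of H2-Aa in KO and 1079.8 and 0 CPM in WT. Conventional dendritic cell-like cells, the classical class II-bearing cells, numbered 1 in KO and 0 in WT, and macrophage or monocyte-like cells 4 and 1.

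Ciita was a sparse transcript, with a UMI in 211 KO cells (4.86%) and 65 WT cells (1.98%). Like the class II genes it was highest in LTi-like cells. It stood at 142.0 CPM in the KO LTi-like cluster (126.9 to 158.3) and 125.5 CPM in the WT one (87.5 to 174.6). In the cluster of ILC precursor-like cells it stood at 7.07 CPM in KO and 7.30 in WT. The ILC precursor-like gate had 16.7 CPM in KO and 7.24 in WT, and 4.38 and 6.21 CPM without the LTi-like cluster. The ILC2-like gate had 1.67 and 1.11 CPM. Ciita was detected in 124 of 386 KO cells (32.1%) and 15 of 29 WT cells (51.7%) of the LTi-like cluster, against 2.20% of the other KO and 1.53% of the other WT cells. A UMI of Ciita was seen in 1 of 69 KO CD3-expressing cells and 0 of 24 WT ones. The 1 KO cell lay in the LTi-like cluster and was also the gate's class II-positive cell.

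Within the LTi-like cluster nearly all cells were class II-positive with or without a Ciita UMI. In KO all 124 cells with one were positive and 252 of 262 without (96.2%), with medians of 217.5 and 107.7 UMIs of the 4 genes per 10000. Depth was alike, at medians of 5744.5 and 5515 UMIs. In WT all 15 cells with and all 14 without a Ciita UMI were positive, with medians of 190.9 and 63.8 per 10000, at 10636 and 9281 UMIs. So KO and WT cells with a Ciita UMI had the higher median.

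In the KO ILC precursor-like gate 35 of 50 cells with a Ciita UMI were class II-positive (70.0%, 55.4 to 82.1%), against 189 of 684 without (27.6%, 24.3 to 31.2%). The cells with Ciita were the shallower ones, at 6816 against 8291.5 UMIs, and at 2000 UMIs per cell the shares were 79.3% and 18.5%. In WT 5 of 13 cells with (38.5%) and 34 of 181 without (18.8%) were positive, with intervals that overlap. In KO common lymphoid progenitor-like cells the shares were 45.0% of 40 and 29.5% of 1112, and at 2000 UMIs 4 of 10 against 3.77% of 1142.
Outside the LTi-like cluster co-detection weakened. There 35 of 87 KO cells with a Ciita UMI (40.2%) and 803 of 3870 without (20.8%) were positive, and in WT 22 of 50 (44.0%) and 518 of 3211 (16.1%). Cells with Ciita were also deeper, at 12541 against 7788 UMIs in KO and 13091.5 against 5294 in WT. At 2000 UMIs per cell the shares were 13.6% of 22 (2.91 to 34.9%) against 7.13% in KO and 20.0% of 10 (2.52 to 55.6%) against 6.403% in WT, so a difference was not detectable at this depth.

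**Figure D4:**
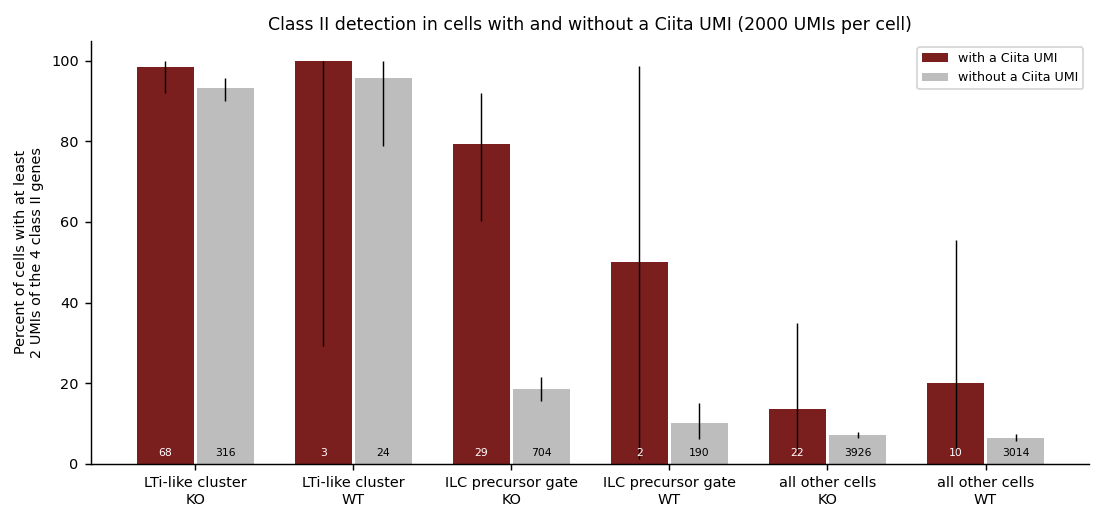
Percent of cells that were class II-positive (y axis, at 2000 UMIs per cell) among cells with (dark) and without (grey) a Ciita UMI, with exact 95% binomial intervals and the number of cells in each bar. In the KO ILC precursor-like gate 79.3% of cells with a Ciita UMI and 18.5% of those without were positive, while the bars of all cells outside the LTi-like cluster overlap in their intervals.

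The KO library was set against the WT library in the 7 gates with at least 30 cells in each, and the largest difference was in the ILC precursor-like gate. There the 7 genes summed to 3.34-fold the WT level in KO (3.15 to 3.53). Of 5 members measured 4 passed the rule of size, all higher in KO: H2-Aa at 367.9 against 89.1 CPM, H2-Ab1 at 225.0 against 71.2, H2-Eb1 at 258.1 against 63.1 and Cd74 at 864.9 against 243.3 CPM. H2-DMa, at 87.5 against 60.1 CPM, did not pass. The background was 0.952% of 3361 genes measured. The median log2 ratio was 1.81 over the 5 members and -0.02 over all genes.
Without the LTi-like cluster the summed level was 1.40-fold that of WT (1.30 to 1.52). None of 4 members measured then passed, beside 18 genes higher and 7 lower of 3364. H2-Aa then stood at 70.4 against 39.04 CPM, H2-Ab1 at 57.6 against 41.3, H2-Eb1 at 41.5 against 31.9 and Cd74 at 200.7 against 140.6 CPM. In the cluster named ILC precursor-like, with 252 KO and 100 WT cells, the ratio was 3.64 (3.17 to 4.19), at 684.7 against 188.2 CPM. Of 5 members measured in it 4 passed, all higher in KO, beside 20 genes higher and 15 lower of 3375. There 11 KO cells and 0 WT cells had 50 or more class II UMIs per 10000, and those 11, of which 6 had an LTi-like marker, carried 54.8% of the KO UMIs of the 4 main genes. H2-Aa stood at 117.3 CPM in KO against 17.8 CPM in WT in this cluster.

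Basophil or mast cell-like cells differed in the opposite direction, at 0.463 of the WT level in KO (0.418 to 0.513). Of 5 members measured 3 passed, all lower in KO: H2-Aa at 37.8 against 99.6 CPM, H2-Eb1 at 28.1 against 80.7 and Cd74 at 85.8 against 252.7 CPM. The background was 1.35% of 3325 genes. Without the LTi-like cluster the summed ratio was 0.544 (0.469 to 0.629), at 140.8 against 258.9 CPM, and Cd74 stood at 22.3 against 88.6 CPM. Here too the shares of clusters differed: 62.1% of the KO cells lay in a cluster led by Ccl6, Ccl9 and Ccl3, while 36.2% of the WT cells lay in one led by Mcpt8 and Ctsg and 26.7% in the shallow unnamed one. The gate's median was 6599 UMIs in KO and 3414 in WT, and after thinning each cell to 2000 UMIs the summed log2 ratio was -0.67, against -1.10 with all UMIs. Barcodes under 500 genes had 142.1 CPM of the 7 genes in KO and 418.9 CPM in WT, lower in KO like this gate and the pDC-like one, and the part of free RNA was not tested.

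In the other 5 gates few members passed. In the NK or ILC1-like gate the summed ratio was 1.39 (1.25 to 1.55), and 1 of 4 members measured passed, H2-Ab1 at 90.8 against 37.0 CPM, beside a background of 0.685% of 3211 genes. Without the LTi-like cluster H2-Ab1 stood at 69.9 against 37.0 CPM (1.89-fold), and the summed ratio was 1.10 (0.984 to 1.22). In the cluster led by Ncr1 the summed ratio was below 1, at 0.803 (0.745 to 0.867), so the sign in these cells depends on which cells are counted. In the ILC2-like gate the ratio was 1.45 (1.33 to 1.57) and 0 of 2 members passed, beside 1.09% of 2948 genes. Without the LTi-like cluster it was 1.20 (1.10 to 1.30), with Cd74 at 170.5 against 129.9 CPM.
In common lymphoid progenitor-like cells the ratio was 1.33 (1.27 to 1.38) and 0 of 2 members passed, beside 0.592% of 3210 genes, and in the cluster named for them it was 0.958 (0.902 to 1.02). Without cells that carried an LTi, B, pDC, dendritic cell or macrophage marker, the direction turned, at 226.7 CPM in KO against 529.0 CPM in WT. In B-like cells the ratio was 1.05 (0.865 to 1.28) and 0 of 3 passed, beside 4.41% of 2628 genes. In pDC-like cells the ratio was 0.691 (0.603 to 0.791), and 1 of 2 passed, Cd74 at 50.2 against 102.4 CPM (43.3 in KO without the LTi-like cluster), beside 0.997% of 3610 genes. Here too the summed level turned without such cells, at 276.4 CPM in KO against 244.3 CPM in WT.

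**Figure D5:**
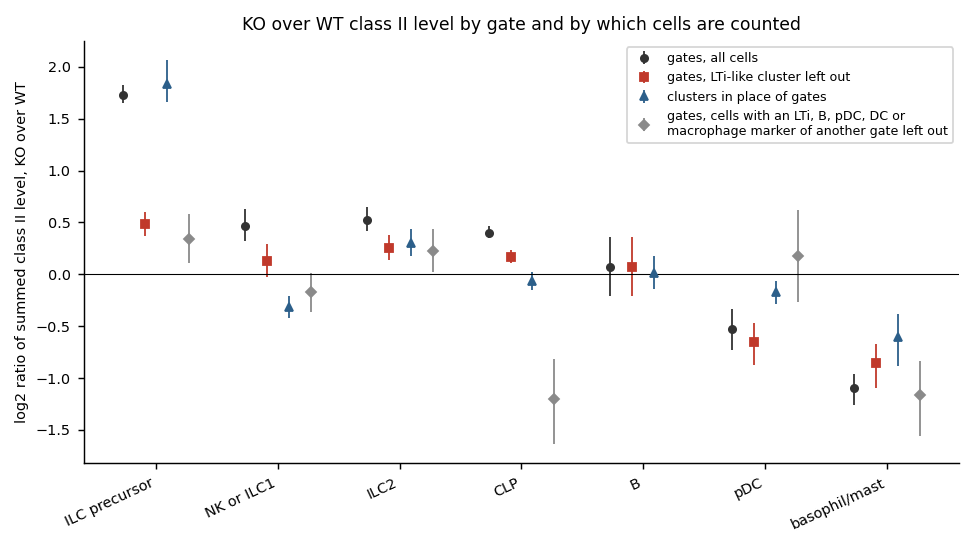
log2 ratio of the summed class II level, KO over WT (y axis, 0 is equal), by gate, with 95% intervals for counting error. Points compare all gated cells, gates without cells of the LTi-like cluster, clusters in place of gates, and gates without cells that carry a UMI of an LTi, B, pDC, dendritic cell or macrophage marker of another gate; the ILC precursor value is 1.73 with all gated cells and 0.48 without the LTi-like cluster.

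Lists beside the members were also set against WT in the ILC precursor-like gate, where the background was 0.952% of 3361 genes. At that background counts over so few genes cannot tell these lists from other genes. None of 4 measured genes of the class II pathway list and none of 8 class I genes passed, with median log2 ratios of 0.30 and -0.03. Without the LTi-like cluster these medians were 0.08 and -0.07. Of 4 interferon gamma response genes measured 1 passed, Cxcl10 at 83.4 CPM in KO against 32.0 CPM in WT. Without the cluster 0 of 4 interferon gamma response genes passed, beside 18 genes higher and 7 lower of 3364. Only 3 of 6 LTi tracers were measured and none passed, with a median of 0.19, and -0.35 without the LTi-like cluster. What LTi-like cells added to the tracer levels of this gate was not tested. The number of LTi-like cells also differed: 141 of 4343 KO cells (3.25%) and 5 of 3290 WT cells (0.152%) by gate, and 386 (8.89%) and 29 (0.881%) by cluster. With 1 library per genotype the sort, the pooling of animals and the deletion cannot be told apart in these shares.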

How the data were processed

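Both deposited matrices were used, 1 library from KO and 1 from WT cells, made with 10x Genomics 3′ chemistry. The authors deposited raw counts: whole-number UMI counts for each gene in each barcode, from Cell Ranger 3.1.0 per the file headers, aligned to mm10 per the submitters' processing notes. Those notes also name Seurat, with no role or version. No source used here gives the annotation release.

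Barcodes with at least 1000 genes and at most 10% mitochondrial UMIs were kept, 4343 in KO and 3290 in WT with 42601457 and 29168870 UMIs. Cells were gated by 14 lists of 6 markers, with at least 2 detected and more than of any other list. Cells with equal counts for several lists were 638 in KO and 557 in WT, and cells with no gate 107 and 71. Gate sums were divided by all UMIs of the gate. Levels carry exact Poisson intervals, shares Clopper-Pearson intervals and ratios exact binomial intervals, all at 95% and for counting error only. A count of 0 is given with the share that 3 cells would make. A gene passed the rule of size if both groups together held 50 UMIs or more of it and the higher group 50 CPM, with a ratio of 2 or more whose interval left out 1. log2 ratios were taken on log2(CPM + 5). Shares were also computed after thinning each cell to 2000 UMIs, which left out shallower cells. The rule of size was tested on simulated data with 200 changed genes per gate. It recovered all genes changed 3- or 4-fold and 39.3 to 57.8% of those changed 2-fold. These shares follow largely from the rule's own minimum ratio of 2. With 1 library per genotype the simulation could not gauge differences between libraries.

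Both libraries were also clustered together with scanpy 1.11.5 (2000 variable genes without the H2 genes, Cd74 and Ciita, 30 components, 15 neighbours, Leiden resolution 1). A cluster was named when its marker list led it by a mean log2 fold over 0.5 and its leading genes did not go against the name, a rule set after the data had been seen. Scrublet marked 48 KO and 0 WT cells, and its calls were not used. No doublets were removed, and an alternative left out the 8% of cells with the highest scores. Alternatives also changed the gene and mitochondrial limits, the markers per gate, the rule's minimums, the scaling (TMM factors from edgeR 4.0.16) and left out cells carrying an LTi, B, pDC, dendritic cell or macrophage marker of another gate. Leaving out the LTi-like cluster was chosen after seeing the data. Other tools were numpy 2.4.6, pandas 2.3.3, scipy 1.17.1 and matplotlib 3.10.9.

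The members, the lists and the marker genes were chosen with earlier results of these data known. The text names the 7 members, genes of the lists that passed the rule or stood highest or lowest, and the 10 genes most like the members. Clusters other than the LTi-like one were picked after their values were seen. Values of some genes in the marker and comparison lists are not reported here.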

Additional observations from a re-analysis of the deposited data

Results flagged for a closer look

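Cells that joined no gate or several gates at once are in none of the comparisons, yet they held class II UMIs. In KO the 638 cells with equal marker counts for several lists had 2151.2 CPM of the 7 genes, against 870.8 CPM in 557 WT cells. The 107 KO cells with no gate had 5324.3 CPM, against 352.6 CPM in 71 WT cells. Cells of the LTi-like cluster carried 80.1% of the KO and 53.6% of the WT UMIs in the first group and 96.3% and 33.3% in the second. Without them the first group stood at 479.4 CPM in KO and 413.0 CPM in WT.

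The KO over WT log2 ratio of the summed genes was 1.73 in the ILC precursor-like gate and -1.10 in the basophil or mast cell-like gate, which lie on opposite sides of 0 with intervals that leave it out. With 1 library per genotype the difference between these gates was not tested.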

How the results depend on the processing

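With 1 library per genotype there was no replicate to leave out. No paired analysis was possible because the libraries carry no shared replicate number and no result comes from a test. Each setting below changed 1 choice, except that the UMI and CPM minimums were loosened together, and for all values it moved the cause was not tested. TMM factors left all 7 KO over WT log2 ratios and all 7 counts of genes within the range set for the main values.

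With at least 10 UMIs and no CPM minimum, 528 genes passed the rule of size in ILC2-like cells (32 in the main setting), 430 in ILC precursor-like (32), 296 in NK or ILC1-like (22), 373 in common lymphoid progenitor-like (19), 445 in B-like (116), 347 in pDC-like (36) and 444 in basophil or mast cell-like cells (45).

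The summed log2 ratio of KO over WT was above 0 under all 9 alternatives in ILC2-like (0.22 to 0.63) and ILC precursor-like cells (0.34 to 2.09), and below 0 under all 9 in basophil or mast cell-like cells (-1.52 to -0.61). In the other gates its sign changed. With clusters in place of gates it was 0.30 in ILC2-like, 1.84 in ILC precursor-like, -0.31 in NK or ILC1-like, -0.061 in common lymphoid progenitor-like, -0.17 in pDC-like and -0.61 in basophil or mast cell-like cells. Without mixed cells it was 0.22 in ILC2-like, 0.34 in ILC precursor-like, -0.17 in NK or ILC1-like, -1.21 in common lymphoid progenitor-like and 0.17 in pDC-like cells. Without the cells of highest doublet score it was 0.23 in ILC2-like, 1.89 in ILC precursor-like, -0.32 in NK or ILC1-like, 0.28 in common lymphoid progenitor-like and -0.24 in B-like cells. After thinning it was 0.37 in ILC2-like, 2.09 in ILC precursor-like, -0.045 in NK or ILC1-like, 0.70 in common lymphoid progenitor-like, -0.95 in B-like, -0.17 in pDC-like and -0.67 in basophil or mast cell-like cells. Without the LTi-like cluster it was 0.25 in ILC2-like, 0.48 in ILC precursor-like, 0.13 in NK or ILC1-like, 0.17 in common lymphoid progenitor-like and -0.86 in basophil or mast cell-like cells. At most 5% mitochondrial UMIs gave 0.20 in common lymphoid progenitor-like, -0.82 in pDC-like and -1.52 in basophil or mast cell-like cells. With 3 markers it was 1.53 in ILC precursor-like and -1.46 in basophil or mast cell-like cells, and at least 500 genes gave -0.91 in the last.

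The fold of the KO LTi-like gate over the other innate gates, 11.9, was 11.54 at 5% mitochondrial UMIs, 12.6 with 3 markers, 12.6 without high doublet scores, 26.7 with clusters and 28.8 without mixed cells. Of its cells 99.3% were class II-positive without thinning. Among KO cells without a Ciita UMI, thinning gave 91.5% in LTi-like, 18.5% in ILC precursor-like and 3.77% in common lymphoid progenitor-like cells. Without mixed cells Cd4 gave 1.33 UMIs per 100 in the LTi-like gate and 0 in the ILC2-like, ILC precursor-like and NK or ILC1-like gates, where up to 1.03, 0.535 and 0.449 are allowed. The B-like gate was not run at 5% mitochondrial UMIs (19 KO and 28 WT cells) or without mixed cells (26 and 23). Depth limits what Ciita shows, with a UMI in 4.86% of KO and 1.98% of WT cells, at median depths of 7261 UMIs in KO and 5371.5 in WT.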

Other observations

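The cluster named plasma cell-like, with 113 KO and 42 WT cells, also held class II UMIs. It was led by Jchain, which joins antibody chains, and Igha, but also by Hist1h1b, Klri2 and Gzma. Of the NK or ILC1-like gate it held 23 KO and 8 WT cells, so its name covers only part of it. The 7 genes stood at 761.2 CPM in KO (722.8 to 801.1) and 830.1 CPM in WT (763.1 to 901.4) in this cluster. Of its KO cells 3 carried 42.4% of the UMIs of H2-Aa, H2-Ab1, H2-Eb1 and Cd74, and 2 of these had an LTi-like marker. In dividing cells, the cluster led by Ccnb2 and Ccnb1 had 349.4 CPM in 116 KO cells and 258.3 CPM in 130 WT cells. Granulocyte precursor-like cells, which were compared in no gate, had 179.7 CPM in 3 KO and 283.2 CPM in 62 WT cells.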
